A study of Mus musculus with 17 samples.

Results

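The cytosolic aminoacyl-tRNA synthetases considered here were the 10 genes Aars, Gars, Nars, Sars, Tars, Wars, Yars, Eprs, Iars and Lars. They were taken by symbol from the 55421 genes of the deposited count matrix, and all 10 were among the 10481 genes that passed a filter on low counts. The set was put together because Aars and Gars were higher after bleomycin in control mice and lower in the knockout, so the members were chosen by their counts in these contrasts, which are given for them as a description without a test. The data were 17 RNA-Seq libraries of cultures labelled as mouse lung fibroblasts, passaged a single time, with 1 mouse behind each library.

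Every mouse was Ephb4f/f; Col1a2-CreERT2, a line in which a tamoxifen-activated recombinase driven by the Col1a2 promoter removes the floxed Ephb4 gene from collagen-producing cells. At 4 weeks of age, mice received injections over 5 days of either corn oil (Ephb4 control) or 1 mg per day of 4-hydroxytamoxifen (Ephb4-CKO). At 6 weeks of age, they received bleomycin at 1.2 U/kg, a drug that breaks DNA and is used to provoke pulmonary fibrosis in mice, or PBS, and lungs were collected on day 14. The groups were 4 control PBS, 4 control bleomycin, 5 CKO PBS and 4 CKO bleomycin libraries. Oil and tamoxifen differed together with the genotype in every mouse, so the effects of the drug and of the deletion cannot be told apart.

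Aminoacyl-tRNA synthetases attach each amino acid to its own tRNA, the step that supplies ribosomes with charged tRNA. Uncharged tRNA activates the kinase GCN2, which phosphorylates eIF2 and raises translation of the transcription factor ATF4, and ATF4 in turn induces amino acid transporters, amino acid biosynthetic enzymes and a number of cytosolic synthetases. Eprs, Iars and Lars sit in the multisynthetase complex, whereas the other 7 members act outside it. Fibroblasts that deposit collagen use large amounts of glycine and proline, which are charged by the products of Gars and Eprs.

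Promoter windows were searched for motifs in the members, of which Nars, Wars and Lars had no window. RefSeq windows (GRCm38.p6, 250 bases before to 50 bases after a start site) were available for 7 members, namely Aars, Gars, Sars, Tars, Yars, Eprs and Iars. The core of the C/EBP-ATF response element (CARE), the composite site bound by ATF4 with a C/EBP partner, was searched as TGATGNAA on both strands, and 5 of these 7 windows held it. The stretch around the match nearest the start site is shown for each gene because it is the feature common to Aars, Gars, Tars, Yars and Iars. Each stretch is 30 bases, read 5′ to 3′ on the strand that carries the match, with the match in capitals.
Aars (chr8:111033840-111033869, minus strand): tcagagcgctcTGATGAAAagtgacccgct
Gars (chr6:55037960-55037989, minus strand): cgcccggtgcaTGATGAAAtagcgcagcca
Tars (chr15:11399655-11399684, plus strand): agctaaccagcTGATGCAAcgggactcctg
Yars (chr4:129189895-129189924, plus strand): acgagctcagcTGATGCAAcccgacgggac
Iars (chr13:49682126-49682155, minus strand): gcgtctggaggTGATGCAAtactgacagtg

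In the gene's own orientation, the match began 30 bases before the start site in Gars and 15 bases before it in Tars, and the longer windows below place these matches in their promoters. Both run 5′ to 3′ in the direction of transcription over the 250 bases before the start site, with the CARE core in capitals, as its reverse complement.
Gars (chr6:55037751-55038000, plus strand): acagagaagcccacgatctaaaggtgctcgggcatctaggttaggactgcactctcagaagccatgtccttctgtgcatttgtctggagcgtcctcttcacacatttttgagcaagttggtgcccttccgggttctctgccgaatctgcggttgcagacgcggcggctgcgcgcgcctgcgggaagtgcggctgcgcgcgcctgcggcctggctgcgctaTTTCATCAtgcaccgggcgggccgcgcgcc
Tars (chr15:11399659-11399908, minus strand): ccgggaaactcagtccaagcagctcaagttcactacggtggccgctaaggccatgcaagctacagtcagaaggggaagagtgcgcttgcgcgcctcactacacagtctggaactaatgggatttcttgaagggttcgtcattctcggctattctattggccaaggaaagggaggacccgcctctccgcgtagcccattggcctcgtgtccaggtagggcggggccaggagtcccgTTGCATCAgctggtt

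The CARE core was in 5 of 7 member windows (71.4%) and in 1219 of 27025 genes with a window (4.51%), or 2.75% of the 8029 such genes that passed the count filter. None of 6 other cytosolic synthetases with a window held it (Dars, Farsa, Farsb, Kars, Mars and Qars), and 8 of 24 listed ATF4 targets that are not synthetases did (33.3%). Cars, Hars, Rars and Vars had no window. Of these, Cars, Hars and Vars had estimates like the members' in the counts below, so whether such genes hold the core was not seen. Sars and Eprs were the members with a window and no match, which says only that these letters are not in these 300 bases. The E-box CACGTG, the site of MYC-family factors, was searched as well and reads the same on both strands. It was in the windows of Aars, Tars and Iars (3 of 7, 42.9%), against 8.09% of all genes with a window and 12.3% of those that passed the filter, and no E-box overlapped a CARE core in these windows. The RefSeq start site of Aars lay 698 bases, and that of Yars 143 bases, downstream of the gene's start in GENCODE M21, so their windows do not hold the whole region before the annotated gene. A match is a run of letters, and whether ATF4 or a C/EBP factor occupied any of these places was not measured.

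**Figure D1:**
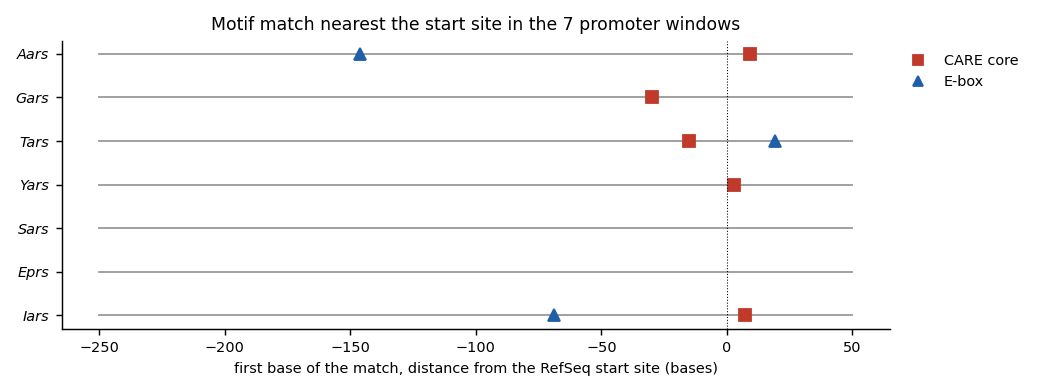
Position of the CARE core (red squares) and E-box (blue triangles) nearest the start site in the 7 member windows, as the distance in bases of the match's first base from the RefSeq start site (dotted line). The CARE cores of Aars, Gars, Tars, Yars and Iars begin between 30 bases before and 9 bases after the start site, while Sars and Eprs have neither motif.

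Library totals ranged from 66540022 to 120554468 counts. The targeted gene gave a limited check of the labels: Ephb4, the receptor tyrosine kinase deleted in the CKO, was at 24.2, 4.00, 33.5 and 2.32 CPM (counts scaled to a common library total) in control PBS, 65.1, 13.2, 35.3 and 40.5 in control bleomycin, 7.70, 23.6, 8.97, 4.01 and 4.05 in CKO PBS and 14.0, 9.53, 10.1 and 4.93 in CKO bleomycin libraries. These ranges overlapped between genotypes after both PBS and bleomycin. Reads outside the floxed exons are counted too, so the level does not measure the deletion alone. In 3 libraries, control bleomycin 2 and CKO bleomycin 1 and 2, Xist and Y-linked genes went against the labelled sex, so these are the libraries labelled as such. An error in the recorded sex and an exchange of libraries, which could put a library in the wrong group, cannot be told apart, and each comparison is also given without them. By these genes, control PBS 2, 3 and 4 and control bleomycin 1 were female. Control PBS 1 and control bleomycin 2, 3 and 4 were male. If the libraries are rightly placed, sex and bleomycin are thus nearly the same split in controls, and the fit with sex as a term used the labelled sex. The labelled cell type was carried unevenly: 12 fibroblast markers averaged 7.53 to 8.46 log2 CPM in control bleomycin, −0.192 to 7.55 in control PBS, 0.962 to 5.98 in CKO PBS and 0.256 to 6.58 in CKO bleomycin libraries. Median Col1a1, a collagen chain among these fibroblast markers, was 1390 CPM in control bleomycin but 18.4, 14.0 and 30.0 CPM in control PBS, CKO PBS and CKO bleomycin. Lyz2, a macrophage gene, had group medians of 12900 to 24600 CPM.

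Compared per kilobase of exon (GENCODE M21, basic set), the member with the highest level was Gars, at 72.9 ± 21.3 CPM per kb (SD over 17 libraries), followed by Nars at 59.6 ± 12.7 and Sars at 47.5 ± 7.81. Gars exceeded Nars in 14 of 17 libraries, and Nars exceeded Sars in 15. Eprs (38.7 ± 11.9 CPM per kb) and Aars (35.2 ± 9.65) followed and were not separated beyond their spread, with Eprs above Aars in 9 of 17 libraries. Wars (25.3 ± 5.11) and Tars (22.4 ± 9.83) likewise exchanged places, with Wars higher in 9 libraries. Lars (19.2 ± 4.86 CPM per kb) was above Iars (14.9 ± 4.74) in 16 libraries, and Iars and Yars (14.8 ± 4.32) formed an unresolved pair at the bottom. The highest and lowest of the 10 thus differed in level per length, while each was well measured, with mean levels of 42.9 CPM (Yars) to 202.1 CPM (Aars). Together the 10 genes took 1609 to 1921 CPM in control bleomycin, 1166 to 1333 in control PBS, 927 to 1171 in CKO PBS and 1015 to 1184 in CKO bleomycin libraries, so the control bleomycin libraries lay above all others.

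The first comparison set bleomycin against PBS in the cultures labelled Ephb4 control. Of the 10 members, 9 were higher after bleomycin, with a median difference of 0.57 log2 (range −0.11 for Wars to 0.79 for Tars), against −0.06 over all genes tested. In 7 of the 10, every bleomycin library exceeded every PBS library, as did 5.72% of all genes. Because this contrast chose the members, that count describes them and nothing is read from it.

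Aars, which charges alanine (chr8:111033144-111057664, plus strand), was at 158.7, 204.3, 178.4 and 181.9 CPM in the control PBS libraries and at 336.7, 288.7, 265.5 and 273.5 CPM in the control bleomycin libraries. The groups were separated, and the bleomycin libraries were 1.61-fold higher (log2 difference 0.69 ± 0.15 SE). Gars (chr6:55038007-55079500, plus strand) makes the enzyme that charges glycine in the cytosol and, from another start codon, in mitochondria. It was at 166.5, 143.9, 171.3 and 185.7 CPM after PBS and at 314.5, 230.4, 215.6 and 221.7 CPM after bleomycin, a 1.47-fold difference (0.56 ± 0.19 log2) with no overlap. Control bleomycin 1 was the highest library for both genes.

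Tars, the threonine enzyme, had the largest difference of the members, with 83.4, 63.1, 123.4 and 68.4 CPM after PBS and 203.5, 127.6, 126.8 and 127.5 CPM after bleomycin (0.79 ± 0.22 log2). The groups were separated narrowly, since control PBS replicate 3 came close to the lowest bleomycin library. Yars, the tyrosine enzyme, was at 31.7, 37.5, 48.9 and 42.2 CPM after PBS and at 77.4, 60.5, 52.9 and 53.0 CPM after bleomycin (0.61 ± 0.18 log2). Nars, for asparagine (0.57 ± 0.15), Iars, for isoleucine (0.60 ± 0.25), and Lars, for leucine (0.53 ± 0.18), also had groups that did not overlap. Eprs, whose product charges both glutamate and proline, overlapped between groups: it was at 198.9, 195.8, 268.0 and 128.1 CPM after PBS and at 206.6, 232.2, 295.4 and 305.2 CPM after bleomycin (0.39 ± 0.24 log2). Sars, the serine enzyme, overlapped too (0.22 ± 0.15 log2).

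Wars did not follow the other 9. The tryptophan enzyme, which is known to be induced by interferon gamma, was at 59.2, 89.6, 62.1 and 94.1 CPM after PBS and at 76.8, 59.4, 74.2 and 71.4 CPM after bleomycin (−0.11 ± 0.23 log2). The bleomycin libraries fell inside the range spanned by PBS.

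**Figure D2:**
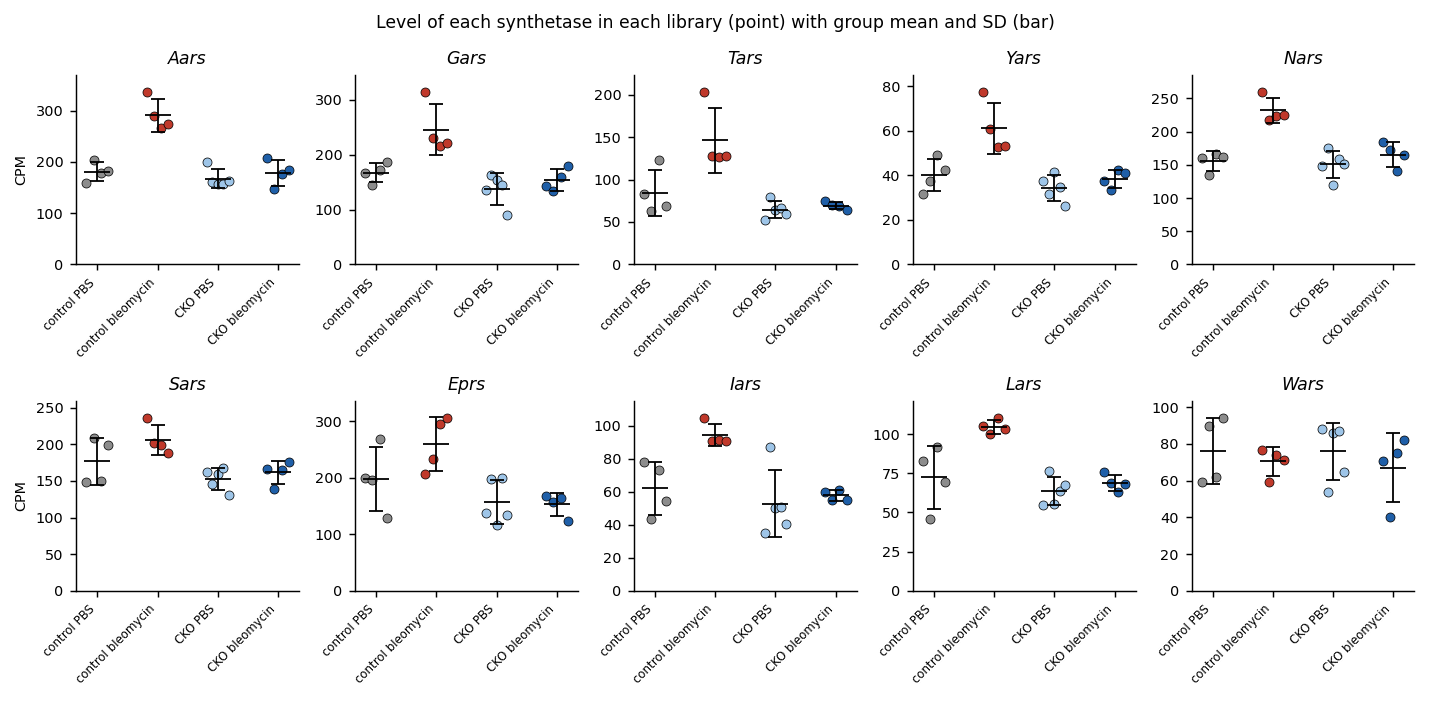
CPM of each of the 10 synthetases in the 17 libraries (points), with the mean and SD of each group (bars), for control PBS (grey), control bleomycin (red), CKO PBS (light blue) and CKO bleomycin (dark blue). Control bleomycin libraries lie above all other libraries for 7 members, but not for Sars, Eprs or Wars, and the 4 groups of Wars overlap.

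The second comparison set Ephb4-CKO against control cultures after bleomycin and used the same 4 control bleomycin libraries, so it is not independent of the first. All 10 members were lower in the CKO, with a median of −0.67 log2 (range −1.08 for Tars to −0.07 for Wars), against 0.01 over all genes. In 9 of the 10, every CKO library was below every control library, as in 12.2% of all genes, and this contrast too was used to choose the members.

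In the CKO bleomycin libraries, Aars was at 206.7, 146.4, 175.7 and 184.4 CPM, all under the lowest control bleomycin library at 265.5 CPM (−0.71 ± 0.15 log2, 0.613 of the control level). Gars was at 142.0, 133.8, 158.7 and 179.8 CPM, all under 215.6 CPM (−0.68 ± 0.19 log2). Tars, at 74.3, 70.1, 68.7 and 64.3 CPM, was at 0.474 of the control level (−1.08 ± 0.22 log2). These CKO bleomycin values overlapped those of the control PBS libraries for all 3 genes.

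Eprs was at 167.4, 156.3, 164.3 and 123.2 CPM in CKO bleomycin, below all control bleomycin libraries although it had not separated bleomycin from PBS within controls (−0.77 ± 0.24 log2). Iars (−0.71 ± 0.25), Yars (−0.67 ± 0.18), Lars (−0.60 ± 0.18), Nars (−0.49 ± 0.15) and Sars (−0.35 ± 0.15) were all non-overlapping in the same direction. Wars was the exception again, at 71.0, 40.0, 75.3 and 82.3 CPM (−0.07 ± 0.23 log2).

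Leaving out the 3 libraries of uncertain sex gave a median of 0.61 log2 for the first comparison and −0.71 for the second, and moved Nars in the second to −0.67. The deposited columns fall into 2 alphabetical runs of 8 and 9 libraries, the sizes of the 2 sequencing groups in the labels, although the labels do not say which library was in which. Within the first run (2 against 2 libraries), the median difference of the members was 0.53 log2 for bleomycin in control and −0.59 for CKO after bleomycin, and within the second run (again 2 against 2) it was 0.59 and −0.69. The sample titles hold 11 or 12 after a shared prefix, read here as 2 number series, although the labels do not say what these digits mean. All 4 control bleomycin libraries were of series 12, as was 1 control PBS library, so series and bleomycin are nearly the same split in controls. With series as a term, the median for bleomycin in control was 0.44 log2, and within series 12 it was 0.50 (4 libraries against 1). Within series 12, the 2 CKO bleomycin libraries were lower than the 4 control bleomycin libraries for all 10 members, with a median of −0.69 log2.

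The remaining 2 contrasts were not the ones that chose the members, but each shares a group with them: the control PBS libraries in the first and the CKO bleomycin libraries in the second. Their tests are therefore not independent of the choice of members. Without bleomycin, CKO and control cultures were compared over 5 and 4 PBS libraries. All 10 members were lower in the CKO by point estimate, with a median of −0.21 log2 (−0.02 over all genes), but the groups overlapped for every member. None passed edgeR's quasi-likelihood test at adjusted p under 0.05 (adjusted p = 0.9998 for each), none had an unadjusted p under 0.05, and none was called by DESeq2 or limma voom. The lowest estimate was that of Tars (−0.39 ± 0.20 log2), which was at 52.9, 79.2, 64.6, 66.6 and 59.3 CPM in CKO PBS. Over all genes, 0% passed the adjusted threshold, while 0.563% were lower and 1.43% higher at unadjusted p under 0.05. Without control PBS replicate 3, the PBS library with the highest fibroblast marker level, the median of the members was −0.12 log2, and without the 3 libraries of uncertain sex it was −0.21.

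In CKO mice, bleomycin was compared with PBS over 4 and 5 libraries. The members differed little, from −0.18 ± 0.22 log2 for Wars to 0.16 ± 0.18 for Gars, with a median of 0.11 (−0.03 over all genes). Aars differed by 0.09 ± 0.14 log2, with 200.7, 159.9, 156.7, 155.9 and 162.0 CPM after PBS beside the CKO bleomycin values above. Gars had 135.4, 163.4, 154.1, 143.9 and 89.9 CPM after PBS. No member passed edgeR's test (adjusted p = 1 for each), had an unadjusted p under 0.05 or was called by DESeq2 or limma voom, in a comparison in which 0% of all genes passed and 0.248% were higher and 0.716% lower at unadjusted p under 0.05. Members lower in CKO bleomycin had been chosen, which favours a small difference here. Without the 3 libraries of uncertain sex the median was 0.05 log2. Whether the bleomycin difference of a member itself depended on genotype was not tested, since 2 of the 4 group contrasts that make up that interaction had chosen the members.

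**Figure D3:**
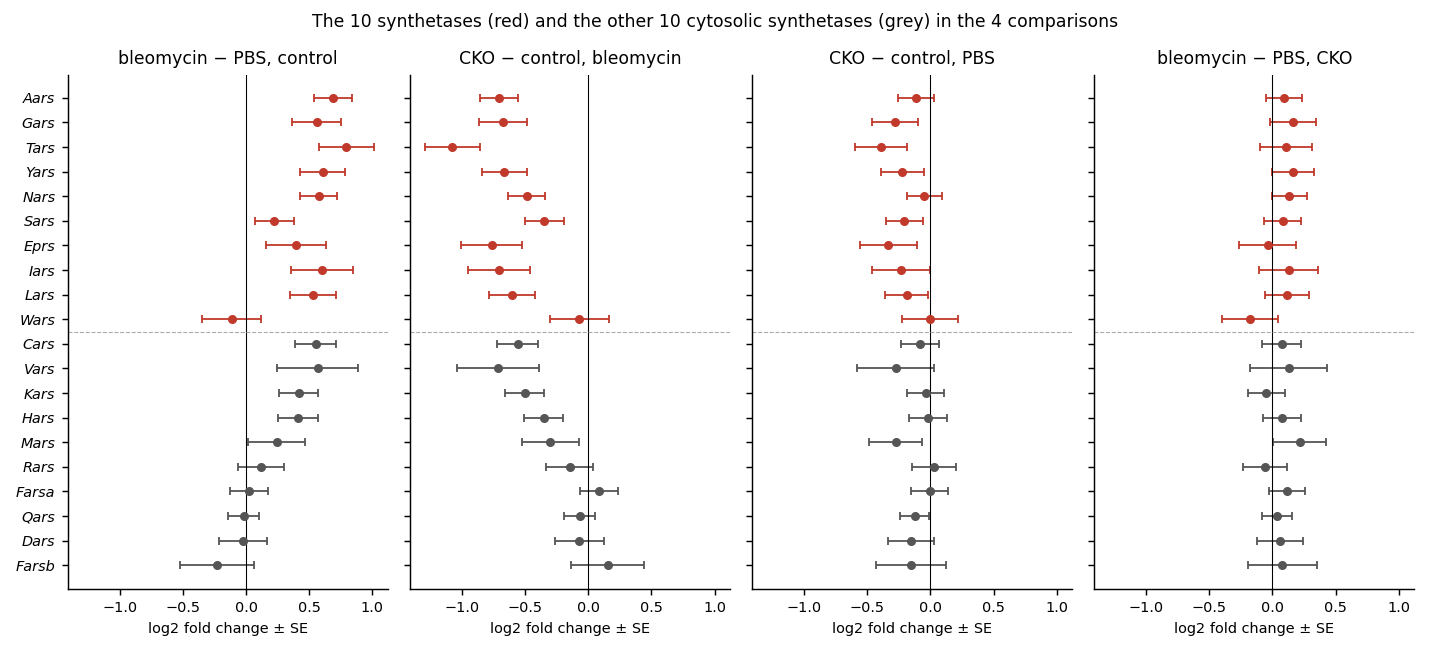
Log2 fold change with its SE (horizontal bars) of the 10 synthetases (red) and the other 10 cytosolic synthetases (grey) in the 4 comparisons, from edgeR. All red points but Wars lie right of 0 for bleomycin in control, and those 9 lie between −1.08 and −0.35 for CKO after bleomycin, while the red points of the 2 other comparisons lie between −0.39 and 0.16.

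The other 10 cytosolic synthetases, which the rule did not use, divided into genes that moved like the members and genes near 0. For bleomycin in control their median was 0.18 log2. At unadjusted p under 0.05 by edgeR, 3 of 10 were higher, namely Cars for cysteine (0.55 ± 0.16), Kars for lysine (0.42 ± 0.15) and Hars for histidine (0.41 ± 0.16), beside 6.28% of all genes, and none was lower, beside 7.98% of all genes. Vars, the valine enzyme, had an estimate of similar size (0.57 ± 0.32 log2) with a larger error. For CKO after bleomycin the median was −0.22 log2, and Cars (−0.56 ± 0.16), Kars (−0.50 ± 0.15), Hars (−0.35 ± 0.16) and Vars (−0.71 ± 0.32) were lower at unadjusted p under 0.05, beside 9.18% of all genes.

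None of these passed edgeR's adjusted threshold in any comparison, where 0% of all genes did, and limma voom called none either. DESeq2 called Cars (adjusted p = 0.0335) and Kars (adjusted p = 0.0326) lower in CKO after bleomycin, in a fit that called 2.42% of all genes lower. Cars, in CPM, was 48.4, 48.9, 48.3 and 43.9 in control PBS and 79.0, 66.9, 67.8 and 63.8 in control bleomycin, with no overlap, and the CKO bleomycin libraries, at 50.2, 43.8, 48.2 and 46.0, overlapped the control PBS libraries. In the same contrasts, Dars, Farsa, Farsb, Qars and Rars, for aspartate, phenylalanine (both subunits), glutamine and arginine, had estimates between −0.23 and 0.15 log2. Mars, for methionine, was intermediate. In the PBS comparison and in CKO mice, none of the 10 had an unadjusted p under 0.05 by edgeR.

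Synthetases of the multisynthetase complex spanned much of the range. Of these, Eprs, Iars, Lars and Kars were lower in CKO after bleomycin by 0.50 log2 or more, whereas Dars, Qars, Rars and Mars were at −0.07, −0.07, −0.15 and −0.30. Of the 3 non-catalytic scaffold proteins, Aimp2 was 0.62 ± 0.24 log2 higher for bleomycin in control and −0.65 ± 0.24 in CKO after bleomycin (unadjusted p = 0.0216 and 0.0167 by edgeR). Eef1e1 was at 0.17 ± 0.27 and −0.41 ± 0.27 log2, with overlapping groups in both. Aimp1 was at 0.25 ± 0.14 log2 for bleomycin in control and at −0.47 ± 0.14 log2 in CKO after bleomycin and was called by DESeq2 (adjusted p = 0.035) but not by edgeR (adjusted p = 0.1965). In CKO against control after PBS, Aimp1 was at −0.29 ± 0.14 log2 (adjusted p = 0.9998 by edgeR).

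The mitochondrial synthetases, which are separate genes, did not share the members' direction. Of 17 listed, 11 passed the filter, and their median was −0.12 log2 for bleomycin in control and 0.17 for CKO after bleomycin. At unadjusted p under 0.05 by edgeR, 2 of the 11 were lower for bleomycin in control, beside 7.98% of all genes, and 2 were higher in CKO after bleomycin, beside 11% of all genes higher in the second of these comparisons. Fars2, for phenylalanine, was at −0.67 ± 0.24 and 0.68 ± 0.24 log2, with adjusted p of 0.3154 and 0.2107 by edgeR.

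ATF4 targets outside the synthetases were listed as 26 genes, with earlier results of these data known, so their agreement with the members is no separate support. Their median was 0.77 log2 for bleomycin in control (11 higher and 1 lower at unadjusted p under 0.05, beside 6.28% and 7.98% of all genes) and −1.17 for CKO after bleomycin (14 lower and 1 higher, beside 9.18% and 11%), and none passed edgeR's adjusted threshold. DESeq2 called 4 of them higher in the first comparison, beside 0.935% of all genes, and 9 lower and 1 higher in the second, beside 2.42% and 1.38%. Asns, which makes asparagine and is a standard reporter of the amino acid response, was at 43.7, 39.5, 90.2 and 34.3 CPM in control PBS and at 201.6, 117.1, 106.2 and 105.8 CPM in control bleomycin (1.35 ± 0.36 log2). In CKO bleomycin it was at 37.6, 27.7, 64.5 and 39.4 CPM, below every control bleomycin library (−1.65 ± 0.36 log2, DESeq2 adjusted p = 0.00324, edgeR adjusted p = 0.1871). Chac1, a glutathione-degrading enzyme, and Trib3, a pseudokinase, were lower in CKO after bleomycin by point estimate (−1.20 ± 0.53 and −1.39 ± 0.55 log2) with adjusted p of 0.2326 and 0.2193 by edgeR.

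The list held members of the opposite sign. Stc2, a secreted glycoprotein, had the highest estimate for bleomycin in control (2.07 ± 1.55 log2) and the lowest in CKO after bleomycin (−3.02 ± 1.61). Atf3, a stress-induced transcription factor, was at −1.69 ± 0.71 and 2.14 ± 0.72 log2 in these comparisons. Ddit3, the pro-apoptotic factor CHOP, was at −0.34 ± 0.64 log2 for bleomycin in control. The mRNA of Atf4 itself, whose product is controlled mainly by translation, was at 163.7, 283.7, 168.9 and 222.7 CPM in control PBS and at 278.0, 231.0, 193.3 and 178.0 CPM in control bleomycin, a difference of 0.07 ± 0.22 log2 with groups that overlapped. A list of stress response control held Atf4 itself and the kinases, eIF2 subunits, phosphatase regulators and other regulators upstream of it. Its 12 tested genes had medians of 0.03 and −0.03 log2 for bleomycin in control and CKO after bleomycin. None had an unadjusted p under 0.05 by edgeR.

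Other parts of translation gave smaller medians than the members. The 8 tRNA export and processing genes had medians of 0.16 log2 for bleomycin in control and −0.19 for CKO after bleomycin. Xpot, the tRNA export receptor, was at the end of the range (0.63 ± 0.18 and −0.76 ± 0.18 log2, DESeq2 adjusted p = 0.0344 and 0.00589). Xpot was also on the list of ATF4 targets, whose DESeq2 calls above include it. The 6 elongation factors had medians of 0.33 and −0.32 log2, led by Eef1g (0.63 ± 0.24 and −0.73 ± 0.24), an EEF1 complex subunit. At unadjusted p under 0.05 by edgeR, 3 of the 6 were higher for bleomycin in control, beside 6.28% of all genes. In CKO after bleomycin, 3 were lower, beside 9.18%, and none passed the adjusted threshold in either comparison. The interferon-gamma list, set beside Wars, ran the other way from the members, with medians of −1.18, 1.03, 1.52 and −1.30 log2 for bleomycin in control, CKO after bleomycin, CKO after PBS and bleomycin in CKO over 7 genes. Gbp3 and Gbp2, interferon-induced GTPases, were at 3.24 ± 1.14 and 3.06 ± 1.07 log2 in CKO after PBS, where Wars was at −0.01 ± 0.22. Across the 17 libraries, which share depth and culture makeup, Wars had r = 0.377 and rho = 0.495 with the mean of the interferon-gamma list, as a description. With group means removed, r was 0.415 for Wars and ran from −0.73 (Iars) to 0.522 (Aars) for the other members.

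**Figure D4:**
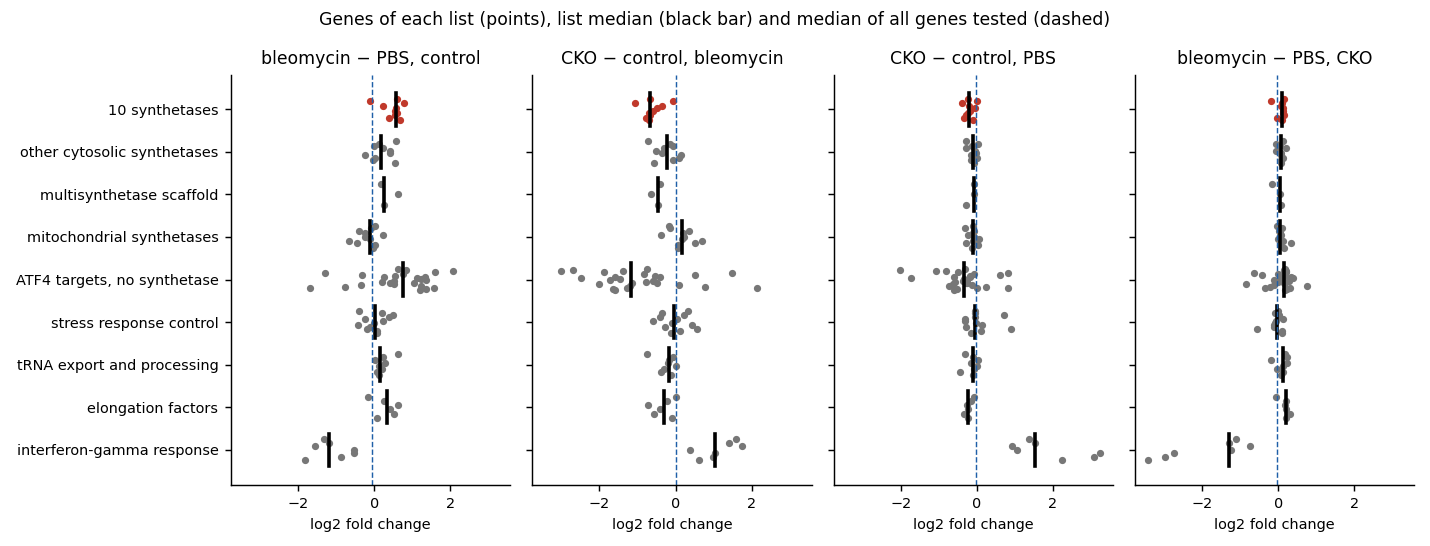
Log2 fold change of every tested gene (points) in the 10 synthetases (red) and 8 other lists (grey) for the 4 comparisons, with the list median (black bar) and the median of all genes tested (blue dashed line). The synthetases and the ATF4 targets lie mostly right of the dashed line for bleomycin in control (medians 0.57 and 0.77) and left of it for CKO after bleomycin (−0.67 and −1.17), and the mitochondrial synthetases do not.

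Among the 17 libraries, the members' levels were centred gene by gene and averaged. The 4 control bleomycin libraries ranked 1 to 4, at 0.648, 0.382, 0.424 and 0.415 log2 above the mean of all libraries, and the fifth was control PBS replicate 3, at 0.135. The lowest was CKO PBS replicate 5, at −0.422. Pairs of members without Wars had a median r of 0.736 (36 pairs, lowest 0.271), and pairs with Wars had a median of −0.195. After group means were removed these medians were 0.234 (range −0.647 to 0.716) and −0.365 (range −0.524 to 0.803). The highest of all pairs was then Sars with Wars, and the lowest was Sars with Lars, so within groups the members did not move as 1 set. The choice of members for a difference between groups raises the values that include group means.

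Among the 10 genes most like the members' mean, of 10471 compared over 17 libraries, were Asns (Pearson r = 0.946, rho = 0.789), R3hcc1 (0.91, 0.804), Xpot (0.909, 0.743), Poglut2 (0.906, 0.738), Prmt1 (0.903, 0.875), Fntb (0.9, 0.826), Shmt2 (0.9, 0.745), 2410002F23Rik (0.899, 0.848) and Cops3 (0.893, 0.799). With group means removed, the 10 highest were Slc16a1 (r = 0.834), Med14, Rbmxl1, Fam57a, Mapk6, Prmt1, Asns, Sephs1, Golm1 and Pelp1 (r = 0.77). Asns and Prmt1 were on both lists, with r = 0.798 for each on the second. For Aars alone the genes most alike were Cars (r = 0.861) and Yars (0.857), and for Gars the first 3 were Tmem97 (0.926), Ptrh2 (0.922) and Yars (0.904). Libraries of 1 group share their treatment and makeup, so these values order genes and test nothing.

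Cell type markers moved with the members. For bleomycin in control, all 12 tested fibroblast markers had positive estimates (median 2.40 log2), and for CKO after bleomycin all 12 were negative (median −2.33). The 19 macrophage markers had medians of −0.86 and 1.14 log2, with 16 of 19 lower in the first comparison and 19 of 19 higher in the second. Their summed level was 1290 to 20500 CPM in control bleomycin, 10200 to 45100 in control PBS, 22200 to 42500 in CKO PBS and 23200 to 43100 in CKO bleomycin libraries. Summed fibroblast markers were 6040 to 13200 CPM in control bleomycin, 46.5 to 7910 in control PBS, 90.3 to 2350 in CKO PBS and 77.6 to 1960 in CKO bleomycin. Tcf21 had group medians of 0.0221 to 1.02 CPM. In bulk RNA, fewer cells of a type and less RNA per cell cannot be told apart.

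The 4 smooth muscle markers moved with the fibroblast markers, with medians of 3.78 log2 for bleomycin in control and −2.35 for CKO after bleomycin. Their summed level was 445 to 462 CPM in control bleomycin against at most 283 CPM elsewhere. The endothelial (6 tested), epithelial (5 tested) and mesothelial (1 tested) lists had medians of −0.13, −0.63 and −1.37 log2 for bleomycin in control and −0.97, −0.18 and −0.35 for CKO after bleomycin. None of the 5 lymphocyte markers passed the filter.

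Single libraries set the markers beside the members directly. Control PBS replicate 3 had a fibroblast score (mean log2 CPM of the 12 markers) of 7.55, inside the control bleomycin range of 7.53 to 8.46, and its members' mean of 0.135 was below all 4 of those libraries. CKO bleomycin replicate 2, a library of uncertain sex, and CKO PBS replicate 3 had scores of 6.58 and 5.98, both below that range. Their members' means were −0.294 and −0.255. Control bleomycin 1 had the lowest macrophage score, 3.56 against 7.3 to 7.78 in the rest of its group, and the highest members' mean. With group means removed, the members' mean had r = −0.0119 with the fibroblast score and −0.677 with the macrophage score over 17 libraries. As measured, r with the fibroblast score was 0.642 (rho = 0.493), and 0.494 without the 2 libraries farthest from the median score. As measured, r with the macrophage score was −0.697 (rho = −0.483). It was −0.37, smaller but of the same sign, without the 2 libraries farthest from the median score, so its size depended on those libraries.

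With the fibroblast score as a term, the members' median was 0.51 log2 for bleomycin in control and −0.60 for CKO after bleomycin. With the macrophage score as a term it was 0.47 and −0.47. Single members moved by more than their spread with a score as a term: Sars was then at 0.46 and −0.55 log2 and Wars at 0.26 in the first comparison with the fibroblast score, and Tars at −0.73 in the second with the macrophage score. Beyond these values, the part of cell makeup in the members' levels was not tested.

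**Figure D5:**
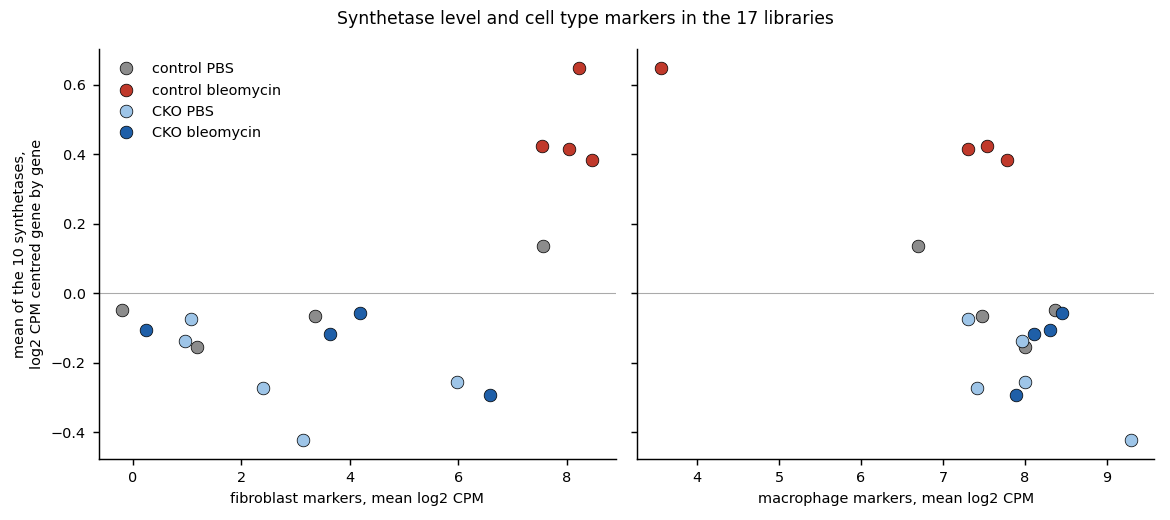
Mean of the 10 synthetases (log2 CPM, centred gene by gene) against the mean log2 CPM of 12 fibroblast markers (left) and 19 macrophage markers (right), 1 point per library, coloured by group. The control bleomycin libraries lie highest, and control PBS replicate 3, with a fibroblast score of 7.55 like theirs, lies below them at 0.135.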

How the data were processed

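Total RNA libraries of 17 mice were sequenced as paired ends. Per the labels, reads were trimmed with cutadapt 1.18 and aligned to GRCm38 with HISAT2 2.1.0, and the authors deposited StringTie gene counts, which are derived from transcript coverage and read length and are not direct tallies. Genes above 10 CPM in at least 2 libraries were kept. edgeR 4.0.16 (TMM, 4 groups in 1 fit, quasi-likelihood test) under R 4.3.3 gave log2 differences, with Benjamini-Hochberg adjustment over all 10481 genes. DESeq2 1.42.0 and limma 3.58.1 (voom) were alternatives, with other scalings, filters, terms and each library left out. Levels are TMM-scaled CPM, and log2 CPM for scores and correlations used a prior count of 2. Named genes were all 10 members, the other 10 cytosolic synthetases, Aimp1, Aimp2, Eef1e1, Atf4, Asns, Ddit3, Trib3 and Chac1, the extremes of each other list and the genes of highest r. Gbp2, Col1a1, Lyz2 and Tcf21 were named after their values were seen. The members and lists were chosen with earlier results of these data known. The fit was tested on simulated counts with planted differences larger than the members', so its power at the members' differences was not examined. Totals of 66540022 to 120554468 counts make counting error small beside the spread between libraries, against which the tests set each group difference. Numbers of replicates are names only. Some items that these rules select are not reported here.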

Additional observations from a re-analysis of the deposited data

Results flagged for a closer look

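Over 48 sets of values (the 10 synthetases and 2 marker scores in 4 groups), 4 had a library whose gap to its nearest neighbour took more of the group's range than Dixon's 95% limit allows, and chance alone gives about 1 in 20. In control bleomycin, replicate 1 was the highest library for Tars (7.67 log2 CPM against 6.99 to 7.0 in the others) and Iars (6.71 against 6.5 to 6.52) and the lowest for the macrophage score (3.56 against 7.3 to 7.78). In CKO PBS, replicate 1 was the highest library for Aars (7.65 log2 CPM against 7.28 to 7.34). Without control bleomycin replicate 1, the members' median for CKO after bleomycin was −0.60 log2.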

How the results depend on the processing

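The members' median kept its sign under all other fits tried and when each of the 17 libraries was left out. Libraries were left out singly, and the 3 of uncertain sex also together. Over all these fits, the median's range was 0.50 to 0.67 log2 for bleomycin in control, −0.71 to −0.60 for CKO after bleomycin, −0.30 to −0.12 for CKO after PBS and 0.05 to 0.16 for bleomycin in CKO, the 0.05 being without the 3 libraries of uncertain sex. The median moved by more than the spread between replicates with number series as a term for bleomycin in control (0.44) and with the macrophage score as a term for CKO after bleomycin (−0.47), and the cause was not tested. No alternative called a member in the PBS comparison or in CKO mice. Of the other cytosolic synthetases, DESeq2 called 2 in CKO after bleomycin (399 of all genes), 2 with the column run as a term (387) and, in that fit, 1 for bleomycin in control (231), where edgeR called 0. Over 330 values per comparison for single members, the sign differed from that reported in 4, 3, 17 and 8 for bleomycin in control, CKO after bleomycin, CKO after PBS and bleomycin in CKO. A prior count of 0.5 moved no library's mean of the members by more than 9.8e-05 log2. With a replicate block by the first 3 digits after the titles' prefix, added after seeing the data and of a meaning that the labels do not give, the medians were 0.54, −0.63, −0.28 and 0.16 log2 for the comparisons in that order and no other cytosolic synthetase was called, while Sars moved to 0.53 for bleomycin in control and to 0.01 for CKO after PBS.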
